A study of Mus musculus with 18 samples.

Results

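Nodal, Tdgf1, Lefty1 and Lefty2, the ligand, the co-receptor and the antagonists at the head of the Nodal pathway, were described in Ctrl and Zeb2 KO mouse ESCs during neural differentiation (ND). They were taken from the gene expression table by their symbols, and all 4 were among its 10965 genes. RNA of 18 cultures was sequenced, with 3 biological replicates in each of 6 groups. Ctrl cells had the genotype Zeb2 fl/fl and KO cells Zeb2 -/-, and both carried the strain label CD1. At d0 both genotypes were ground-state ESCs, grown without feeder cells in the 2 inhibitors PD0325901 and CHIR99021 with LIF. They were then plated as embryoid bodies in medium with 15% serum and sampled at d4, labelled multipotent progenitors. At d4 both genotypes were moved to serum-free N2B27 medium with 500 nM retinoic acid, and they were sampled again at d6, labelled neural progenitors. The KO lines of the study included ones made from Zeb2 fl/fl lines by Cre expressed from a transfected vector, and which lines and how many were sequenced is not given in the sources used here.

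Nodal is a secreted ligand of the TGFβ family that signals through activin receptors and the transducers SMAD2 and SMAD3. It needs a membrane-anchored co-receptor of the EGF-CFC family, of which Tdgf1 (Cripto) is a member. Lefty1 and Lefty2 are secreted relatives that bind Nodal or its co-receptor and block signalling, and since Nodal signalling also switches on Nodal, Lefty1 and Lefty2, the pathway holds both a positive and a negative loop. In the mouse embryo it maintains the epiblast, patterns the anterior-posterior and left-right axes and induces mesendoderm, and its inhibition favours neural fate. ZEB2 is a zinc finger and homeodomain protein that binds SMADs and represses genes through DNA with the letters CACCT.

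The 18 libraries held between 9622622 and 15617675 reads in the genes of the table. Zeb2 went from a mean of 0.129 TPM (a level scaled to gene length and library size) in d0 Ctrl libraries to 1.36 TPM at d4 and 7.66 TPM at d6. Its KO means were 0.0216, 0.164 and 0.681 TPM. The labelled cell types were checked by summed levels of marker lists. All 8 naive ESC markers were in the table, and their sum lay between 2630 and 2870 TPM in the d0 libraries of both genotypes. The 6 neural progenitor markers summed to 258 to 280 TPM in Ctrl at d6 but to 61.6 to 74.2 TPM in KO at d6, against 33.7 to 35.3 TPM in KO at d0, so these markers bore out the label neural progenitor only weakly in KO. The 4 general pluripotency markers (Pou5f1, Nanog, Sox2 and Utf1) summed to 2120 to 2580 TPM in Ctrl and 3290 to 3680 TPM in KO at d4, and to 846 to 979 TPM in Ctrl and 2840 to 3180 TPM in KO at d6. The 5 epiblast-like markers summed to 107 to 130 TPM in Ctrl and 473 to 671 TPM in KO at d4, and to 134 to 144 TPM in Ctrl and 910 to 1050 TPM in KO at d6. The mesoderm markers in the table, 2 of 6 (Eomes and Meox1), summed to 189 to 232 TPM in Ctrl and 3.44 to 4.77 TPM in KO at d4, and to 130 to 184 TPM in Ctrl and 8.52 to 13.5 TPM in KO at d6. The Ctrl sums were mostly Meox1. Eomes alone had means of 3.62 TPM in Ctrl and 3.27 TPM in KO at d4. At d6 it went the other way, with 2.0 TPM in Ctrl and 9.93 TPM in KO. The trophectoderm markers in the table, 4 of 5, of which Krt8 and Krt18 are keratins of many epithelia, summed to 1040 to 1610 TPM in Ctrl and 1030 to 2030 TPM in KO at d6. In KO at d4 and d6 the general pluripotency and epiblast-like sums were thus higher, and the neural progenitor and mesoderm sums lower, than in Ctrl. The naive ESC sum overlapped at d4, with 1150 to 1410 TPM in Ctrl and 1200 to 1450 TPM in KO. At d6 it was 243 to 301 TPM in Ctrl and 340 to 351 TPM in KO. The part of these marker sums in the differences given below was not tested.

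The genes lie on 3 chromosomes of GRCm38. Nodal (ENSMUSG00000037171) is at chr10:61417972-61425338 on the plus strand, and Tdgf1 (ENSMUSG00000032494) is at chr9:110939603-110946158 on the minus strand. Lefty2 (ENSMUSG00000066652) at chr1:180893108-180899103 and Lefty1 (ENSMUSG00000038793) at chr1:180935022-180938400 are both on the plus strand, with starts 41.9 kb apart. Promoter sequence was matched for 2 of the 4 genes, Nodal and Tdgf1, in RefSeq's annotation of GRCm38.p6. It is shown here because both genes were higher in KO at d4 and d6 and because it holds the letters that ZEB2 is known to bind. The 250 bases before each start, chr10:61417722-61417971 (plus strand) and chr9:110946159-110946408 (minus strand), and 30 bases around the Tdgf1 start, chr9:110946134-110946163 (minus strand), read as follows, 5′ to 3′, with CACCT in capitals. CACCTG is also in capitals, and the last base of the Tdgf1 upstream stretch is the first base of the CACCTG that spans the start.
Nodal upstream: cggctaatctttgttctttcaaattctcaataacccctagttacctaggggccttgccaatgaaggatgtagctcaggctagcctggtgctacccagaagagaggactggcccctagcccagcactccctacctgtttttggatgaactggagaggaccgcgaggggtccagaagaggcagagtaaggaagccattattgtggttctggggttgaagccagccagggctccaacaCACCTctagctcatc
Tdgf1 upstream: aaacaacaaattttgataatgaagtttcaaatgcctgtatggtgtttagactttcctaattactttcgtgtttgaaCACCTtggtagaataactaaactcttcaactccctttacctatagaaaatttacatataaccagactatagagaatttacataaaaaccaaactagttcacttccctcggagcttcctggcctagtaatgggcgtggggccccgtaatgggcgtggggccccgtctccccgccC
Tdgf1 start site: cgccCACCTGagggtcctactcaaCACCTt
Counted from the first transcribed base as 1, with no base 0, Nodal held CACCT at bases -15 to -11. Tdgf1 held CACCT at bases -174 to -170 and 20 to 24, and CACCTG, which contains CACCT, at -1 to 5. On either strand, CACCT occurred in 51.9% and CACCTG in 20.2% of 32851 promoter windows of 300 bases, and 18.2% had CACCT at 2 or more places. The letters are thus common, and a match describes the sequence only.

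**Figure D1:**
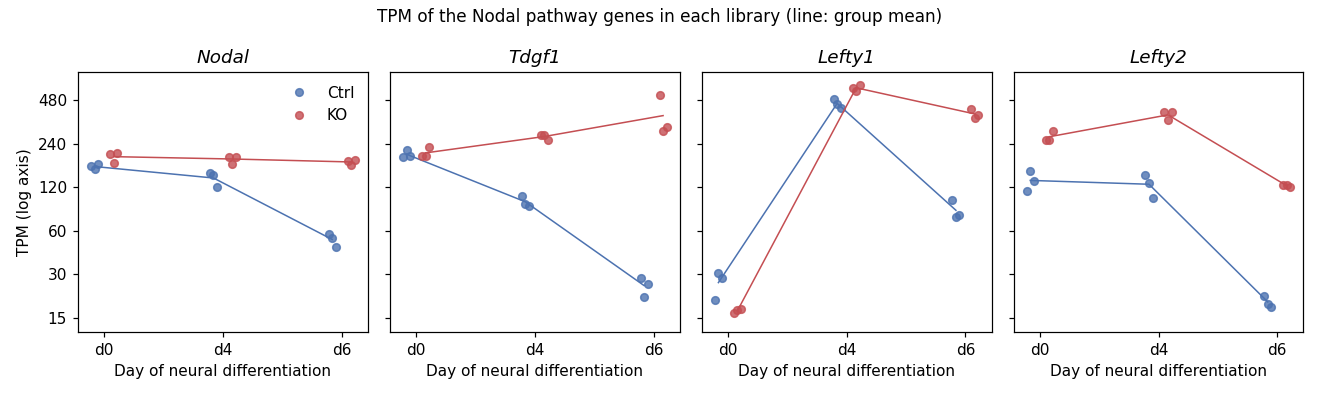
TPM (log axis) of Nodal, Tdgf1, Lefty1 and Lefty2 in each of the 18 libraries by day of ND, with Ctrl in blue and KO in red, points for libraries and lines joining group means. At d6 all KO libraries lie above all Ctrl libraries for each gene, and Lefty1 has its highest points at d4 in both genotypes.

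Nodal, the ligand, stayed near its ESC level in KO while it declined in Ctrl. In Ctrl it was at 166.8, 159.0 and 173.5 TPM at d0, at 150.9, 145.6 and 119.6 TPM at d4 and at 56.83, 53.37 and 46.28 TPM at d6. In KO it was at 203.8, 175.6 and 204.9 TPM at d0, at 195.2, 173.7 and 193.9 TPM at d4 and at 182.2, 170.8 and 183.9 TPM at d6. The KO libraries lay above the Ctrl libraries at each day without overlap, by a narrow margin at d0, while the 3 KO groups overlapped one another and the KO d6 group overlapped Ctrl at d0. On the log2(TPM + 1) scale KO minus Ctrl was 0.22 at d0 (SE 0.09, adjusted p = 0.0662, limma with Benjamini-Hochberg adjustment over all genes, called below 0.01), which was not called. It was 0.44 at d4 (SE 0.09, adjusted p = 0.000758) and 1.76 at d6 (SE 0.09, adjusted p = 1.31e-10), or 3.4-fold. The d6 means were 52.2 ± 5.38 TPM in Ctrl and 179 ± 7.12 TPM in KO (SD, n = 3), and Nodal had 320 to 1545 reads per library over all days. In bulk RNA, fewer cells with Nodal and less Nodal RNA per cell cannot be told apart.

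Within Ctrl, Nodal fell by 1.39 from d4 to d6 (adjusted p = 4.72e-09), whereas the change of -0.27 from d0 to d4 was not called (adjusted p = 0.0148). That value became -0.57 and was called when libraries were rescaled by median ratios, and it was called at -0.33 without Ctrl d4 replicate 1 and at -0.27 without Ctrl d6 replicate 3. It was not called after quantile normalization (-0.24, adjusted p = 0.0438) or without Ctrl d4 replicate 3 (-0.17, adjusted p = 0.105). Within KO no change of Nodal was called, with -0.05 from d0 to d4 (adjusted p = 0.638), -0.07 from d4 to d6 (adjusted p = 0.576) and -0.12 from d0 to d6 (adjusted p = 0.255). The change from d0 to d6 differed between the genotypes by 1.54 (SE 0.13, adjusted p = 8.03e-08).

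**Figure D2:**
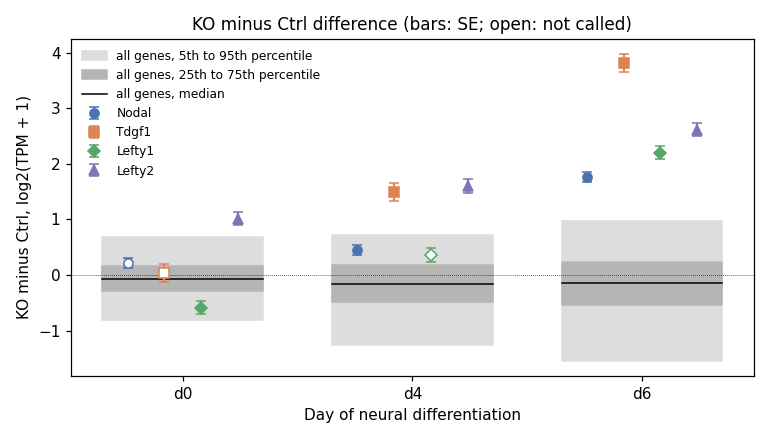
KO minus Ctrl difference of each gene on the log2(TPM + 1) scale by day of ND, with bars for the SE, filled points for called and open points for not called differences, and grey bands for all 10965 genes. At d6 the 4 points lie between 1.76 and 3.81, all above the 95th percentile of all genes.

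Tdgf1, the co-receptor, was level in both genotypes at d0 and then moved in opposite directions. Ctrl libraries held 194.2, 215.9 and 196.8 TPM at d0, 103.7, 92.26 and 89.06 TPM at d4 and 28.44, 21.05 and 25.72 TPM at d6. KO libraries held 196.8, 197.9 and 225.6 TPM at d0, 276.5, 275.0 and 253.4 TPM at d4 and 519.4, 290.8 and 312.0 TPM at d6. The groups overlapped at d0 only, and KO d6 replicate 1 stood above the other 2 libraries of its group. KO minus Ctrl was 0.03 at d0 (SE 0.16, adjusted p = 0.907), 1.49 at d4 (SE 0.16, adjusted p = 1.36e-06), or 2.81-fold, and 3.81 at d6 (SE 0.16, adjusted p = 1.07e-11), or 14.0-fold. The d6 means were 25.1 ± 3.74 TPM in Ctrl and 374 ± 126 TPM in KO (SD, n = 3), from 319 to 6903 reads per library over all days, and Tdgf1 had rank 7 of the 10965 genes by its difference at d6. Without KO d6 replicate 1 and under all other alternatives tried the d6 difference stayed between 3.55 and 4.12.

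In Ctrl, Tdgf1 fell by 1.08 from d0 to d4 (adjusted p = 1.32e-05) and by 1.89 from d4 to d6 (adjusted p = 7.36e-08). In KO the changes of 0.38 from d0 to d4 (adjusted p = 0.0492) and 0.43 from d4 to d6 (adjusted p = 0.0333) were not called, and the change of 0.80 from d0 to d6 was (adjusted p = 0.000253, leave-one-out values 0.54 to 0.96). The change from d4 to d6 depended on single d6 libraries, since it was 0.17 without KO d6 replicate 1 and 0.58, and called, without KO d6 replicate 2. The change from d0 to d4 remained 0.38 without KO d6 replicate 1 and was then called (adjusted p = 0.00221), and the change from d0 to d6 was called with each of the 3 KO d6 libraries left out in turn. The change from d0 to d6 differed between KO and Ctrl by 3.78 (SE 0.23, adjusted p = 1.66e-09).

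Reads of Tdgf1 may be shared with a copy, Tdgf1-ps1 (ENSMUSG00000095834), a pseudogene of 513 bases at chr16:3730510-3731022 on the plus strand that was 98.6% identical to Tdgf1 over 513 aligned columns. Of its 478 windows of 36 bases, the read length used, 305 (63.8%) also occurred in the Tdgf1 transcript, where they made up 16.1% of 1897 windows. A stretch of 45 bases, bases 741 to 785 of the Tdgf1 transcript inside its reading frame, shows the few letters that tell the copies apart, in capitals.
Tdgf1: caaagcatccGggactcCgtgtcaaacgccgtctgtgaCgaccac
Tdgf1-ps1: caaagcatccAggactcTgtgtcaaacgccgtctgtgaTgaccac
In Ctrl, Tdgf1-ps1 was listed at 489.8, 602.7 and 494.0 TPM at d0, at 262.8, 235.4 and 212.5 TPM at d4 and at 74.04, 32.02 and 69.2 TPM at d6. In KO it was listed at 472.0, 497.5 and 547.5 TPM at d0, at 603.0, 677.9 and 576.3 TPM at d4 and at 1156, 549.9 and 716.6 TPM at d6. Its course thus ran alongside that of Tdgf1, with a Pearson r of 0.99 over the 18 libraries and from 0.185 to 0.344 reads for each Tdgf1 read in a library. How reads that match both were counted is not given in the sources used here, so how much of either gene's level belongs to the other cannot be told apart. With the TPM of both added, the d0 difference was -0.04 and the KO change from d0 to d6 was 0.67 and no longer called (adjusted p = 0.0133), whereas the differences at d4 and d6 remained called.

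Lefty1, an antagonist that also marks the anterior visceral endoderm and the left side of the floor plate, rose steeply from d0 to d4 in both genotypes and then fell much further in Ctrl than in KO. Ctrl libraries held 19.95, 30.58 and 28.32 TPM at d0, 489.6, 448.0 and 425.3 TPM at d4 and 97.15, 74.76 and 77.09 TPM at d6. KO libraries held 16.08, 17.06 and 17.25 TPM at d0, 580.7, 554.2 and 611.3 TPM at d4 and 415.3, 359.2 and 377.3 TPM at d6. No neighbouring groups overlapped in the order of levels, which ran KO d4, Ctrl d4, KO d6, Ctrl d6, Ctrl d0 and KO d0. From d0 to d4 Lefty1 rose by 4.08 in Ctrl (adjusted p = 1.94e-13), or 16.9-fold, and by 5.03 in KO (adjusted p = 3.73e-14), or 32.7-fold. From d4 to d6 it fell by 2.45 in Ctrl (adjusted p = 2.82e-10) and fell by 0.60 in KO (adjusted p = 0.00076).

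Lefty1 was the one member that was lower in KO at d0, by -0.59 (SE 0.12, adjusted p = 0.00132). That call was lost in a fit to the d0 libraries alone (adjusted p = 0.021) and with voom on recovered reads (adjusted p = 0.0285), while over all alternatives the adjusted p ran from 3.73e-05 to 0.0285 and the value from -0.77 to -0.47. At d4 KO minus Ctrl was 0.36 (SE 0.12, adjusted p = 0.0221) and not called, although the libraries did not overlap. It was called at 0.53 after median-ratio rescaling and at 0.36 without Ctrl d0 replicate 1, but not after quantile normalization (0.24, adjusted p = 0.108) or without Ctrl d4 replicate 3 (0.31, adjusted p = 0.0802). At d6 it was 2.20 (SE 0.12, adjusted p = 3.76e-10), or 4.61-fold, with means of 83 ± 12.3 TPM in Ctrl and 384 ± 28.6 TPM in KO (SD, n = 3). Lefty1 had between 107 and 4389 reads per library. The endoderm markers in the table, 5 of 8 listed (Afp, Ttr, Gata4, Gata6 and Foxa2), summed to 81.5 to 123 TPM in Ctrl and to 15.9 to 22.7 TPM in KO at d6. At d4, where Lefty1 was highest, they summed to 11.8 to 13.5 TPM in Ctrl and 5.71 to 9.16 TPM in KO. The floor plate markers in the table, 2 of 4 (Foxa2 and Ntn1), summed to 60.2 to 68.8 TPM in Ctrl and to 9.83 to 12.2 TPM in KO at d6. That sum was mostly Ntn1. In ESCs at d0 it was already 25.9 to 38.3 TPM in Ctrl and 53.9 to 63.8 TPM in KO, so it did not single out floor plate. Which cells held the Lefty1 RNA was not tested.

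Lefty2, the other antagonist, was higher in KO at every day, already in ESCs. Ctrl libraries held 112.0, 155.3 and 133.1 TPM at d0, 146.3, 129.0 and 101.4 TPM at d4 and 21.4, 18.84 and 17.75 TPM at d6. KO libraries held 254.0, 254.7 and 293.0 TPM at d0, 393.9, 346.8 and 394.7 TPM at d4 and 123.2, 123.9 and 120.7 TPM at d6. The genotypes did not overlap at any day, and KO at d6 lay within the range of Ctrl at d4. KO minus Ctrl was 1.01 at d0 (SE 0.12, adjusted p = 1.23e-05), or 2.01-fold, 1.60 at d4 (SE 0.12, adjusted p = 3.76e-08), or 3.03-fold, and 2.61 at d6 (SE 0.12, adjusted p = 4.74e-11), or 6.1-fold. In Ctrl the change from d0 to d4 was -0.09 (adjusted p = 0.521) and Lefty2 then fell by 2.63 from d4 to d6 (adjusted p = 1.54e-10). In KO it rose by 0.50 from d0 to d4 (adjusted p = 0.00204, not called after median-ratio rescaling with 0.33) and fell by 1.62 from d4 to d6 (adjusted p = 3.67e-08). The d6 means were 19.3 ± 1.87 TPM in Ctrl and 123 ± 1.7 TPM in KO (SD, n = 3), and Lefty2 had 166 to 3547 reads per library. Of the 1585 windows of 36 bases in the Lefty1 transcript, 365 (23.0%) also occurred in that of Lefty2, so some reads could match both genes, whereas no window of Nodal occurred in another gene.

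Read over the genotypes, 1 of the 4 genes was called higher in KO at d0 (Lefty2) and 1 lower (Lefty1), where 10.6% of all genes were called higher and 16.4% lower. At d4, 3 of 4 were called higher (12.7% of all genes) and none lower (32.7%), and at d6 all 4 were called higher (17.9%) and none lower (34.3%). The libraries of KO lay above those of Ctrl without overlap for 2 of 4 genes at d0 (19.9% of all genes), and below them for Lefty1 (31.5%), and they lay above for all 4 at d4 (20.0%) and d6 (22.7%). The background depends on scaling, since the median of all genes was -0.16 at d4 and -0.14 at d6, and median-ratio rescaling moved the share of calls that were higher from 28.0% to 49.6% at d4 and from 34.3% to 49.9% at d6. Rescaling turned the direction of no call of the 4 genes.

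Along ND in Ctrl, 1 gene was called higher (Lefty1) and 1 lower (Tdgf1) from d0 to d4, beside 45.1% and 22.3% of all genes, and all 4 were called lower from d4 to d6 (21.5%). From d0 to d6 Nodal fell by 1.66 (adjusted p = 7.5e-11), Tdgf1 by 2.97 (adjusted p = 5.56e-11) and Lefty2 by 2.72 (adjusted p = 7.51e-12), whereas Lefty1 rose by 1.63 (adjusted p = 4.14e-09), beside 25.8% of all genes called lower and 45.8% called higher. In KO, 2 genes were called higher from d0 to d4 (Lefty1 and Lefty2, 35.8%) and the same genes, 2 of 4, were called lower from d4 to d6 (19.9%). From d0 to d6 Lefty1 rose by 4.43 in KO (adjusted p = 3.75e-14), or 21.6-fold, Tdgf1 rose as given above (40.3% of all genes called higher), and Lefty2 fell by 1.11 (adjusted p = 4.78e-07, 27.4% called lower). The median of all genes shifted by 0.26 in Ctrl and 0.15 in KO from d0 to d4, and after median-ratio rescaling the share of these calls that were higher moved from 66.9% to 49.4% in Ctrl and from 63.2% to 49.1% in KO. For d0 to d6 in Ctrl the calls went from 5018 higher and 2825 lower to 3890 and 3946.

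The changes themselves were compared between the genotypes. From d0 to d4 the change was called higher in KO for 2 of 4 genes, Tdgf1 and Lefty1 (13.6% of all genes), from d4 to d6 for 4 of 4 (7.1%), with differences of 1.01 for Lefty2 to 2.32 for Tdgf1, and from d0 to d6 for 4 of 4 (17.8%).

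The order of the 6 group means differed between the genes. For Nodal the order was KO d0, KO d4, KO d6, Ctrl d0, Ctrl d4 and Ctrl d6, and only the last 2 steps separated groups without overlap. For Tdgf1 the order was KO d6, KO d4, KO d0, Ctrl d0, Ctrl d4 and Ctrl d6, with overlap only between KO d0 and Ctrl d0. For Lefty2 the order was KO d4, KO d0, Ctrl d0, Ctrl d4, KO d6 and Ctrl d6, with overlap between Ctrl d0 and Ctrl d4 and between Ctrl d4 and KO d6. Over the 18 libraries, in which day and medium change together and the libraries of a group share both, Pearson r of log2(TPM + 1) was 0.94 for Nodal with Tdgf1, 0.93 for Nodal with Lefty2 and 0.84 for Tdgf1 with Lefty2. It was 0.05, 0.13 and 0.11 for Lefty1 with Nodal, Tdgf1 and Lefty2, although within groups the deviations of Lefty1 and Lefty2 had an r of 0.77.

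Ratios within a library, which do not depend on its scaling, showed how the mixture of these transcripts shifted. TPM is scaled to a length set for each gene, and reads may be shared with Tdgf1-ps1 or between Lefty1 and Lefty2. The ratios thus compare groups and are not ratios of transcript numbers. Lefty1 per Lefty2 was 0.178 to 0.213 in Ctrl and 0.0589 to 0.067 in KO at d0, 3.35 to 4.2 in Ctrl and 1.47 to 1.6 in KO at d4, and 3.97 to 4.54 in Ctrl and 2.9 to 3.37 in KO at d6. By TPM, Lefty2 was thus the higher antagonist in ESCs and Lefty1 at d4 and d6, in both genotypes. At each day the KO ratios lay below those of Ctrl without overlap. Both antagonists together per Nodal were 0.791 to 1.17 in Ctrl and 1.33 to 1.55 in KO at d0, 3.96 to 4.4 and 4.99 to 5.19 at d4, and 1.75 to 2.09 and 2.71 to 2.95 at d6. This ratio was highest at d4 in both genotypes, and at each day the KO libraries lay above those of Ctrl without overlap. Tdgf1 per Nodal was 1.13 to 1.36 in Ctrl and 0.966 to 1.13 in KO at d0, 0.633 to 0.744 and 1.31 to 1.58 at d4, and 0.394 to 0.556 and 1.7 to 2.85 at d6.

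**Figure D3:**
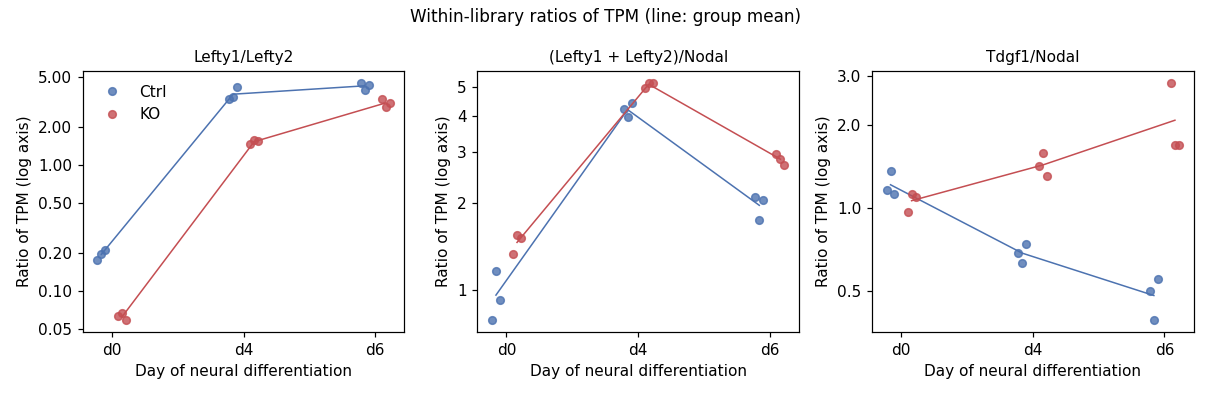
Ratios of TPM within each of the 18 libraries (log axes) by day of ND, with Ctrl in blue, KO in red and lines joining group means. Lefty1 per Lefty2 lies below Ctrl in KO at each day, and Tdgf1 per Nodal separates from d4, with 0.394 to 0.556 in Ctrl and 1.7 to 2.85 in KO at d6.

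Other genes of the pathway were called in both directions in KO at each day. Of 36 genes listed by role beside the 4, 26 were in the table, of which 4 passed as higher and 7 as lower at d0, 5 and 9 at d4, and 10 and 11 at d6. Of all genes, 10.6% were called higher and 16.4% lower at d0, 12.7% and 32.7% at d4, and 17.9% and 34.3% at d6. The median differences of the 26 were -0.20, -0.19 and -0.02, against -0.07, -0.16 and -0.14 for all genes. Of 4 other ligands listed, 2 were in the table. Gdf3, which shares the co-receptor, was higher in KO at each day, by 0.54, 0.34 and 1.63 (adjusted p = 1.01e-10 at d6). At d6 it was at 25.7 to 33.0 TPM in the Ctrl and 90.4 to 99.4 TPM in the KO libraries. Inhbb was lower in KO at d0, by -1.95 (adjusted p = 3.66e-05), and was not called at d4 (-0.59) or d6 (0.34). Among the receptors, 3 of 3 in the table were called lower at d4 and 2 of 3 at d6, beside the 32.7% and 34.3% of all genes, and Acvr2a, a type II receptor, was at 38.7 ± 4.76 TPM in Ctrl and 15.4 ± 0.299 TPM in KO at d6, a difference of -1.27 (adjusted p = 3.75e-08).

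Among the 5 transducers and co-factors, 2 were called higher (Foxh1 and Trim33) and 3 lower at d6, beside 17.9% and 34.3% of all genes. Foxh1, the DNA-binding partner of SMAD2 on Nodal targets, was at 103 ± 20.2 TPM in Ctrl and 277 ± 21.6 TPM in KO at d6, higher by 1.44 (adjusted p = 6.42e-09). It was already higher in KO at d0, by 0.93 (adjusted p = 4.48e-06), but not called at d4 (0.1, adjusted p = 0.4). The Foxh1 means at d0 and d4 were 147 and 256 TPM in Ctrl and 282 and 276 TPM in KO. The 3 called lower at d6 were Smad2, Smad3 and Smad4. Of 7 intracellular inhibitors, 4 were called higher and 2 lower at d6, beside the same shares of all genes. Smad7, an inhibitory SMAD that TGFβ-type signals induce, was higher by 1.18 (adjusted p = 1.67e-08) and the repressor Tgif1 by 1.22 (adjusted p = 3.59e-10), whereas the co-repressor Ski was lower by -1.13 (adjusted p = 6.3e-09). Tgif1 had been lower in KO at d0, by -0.89 (adjusted p = 1.28e-07). The secreted activin-binding protein Fst was higher in KO at d4, by 1.68 (adjusted p = 3.58e-05), and lower at d6, by -1.77 (adjusted p = 1.29e-05), with 33.3 ± 10.2 TPM in Ctrl and 8.89 ± 1.84 TPM in KO at d6.

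Of 9 target genes listed for mesendoderm and the left side, 6 were in the table, which lacked Mixl1, T and Sox17. Of these 6, 3 were called higher and 2 lower at d6, beside 17.9% and 34.3% of all genes, and their levels were low. Fgf8, a growth factor of the primitive streak, was at 0.89 ± 0.419 TPM in Ctrl and 13.6 ± 1.21 TPM in KO at d6, higher by 2.97 (adjusted p = 3.18e-09). Eomes, a T-box factor of mesendoderm, was at 2.0 ± 0.557 and 9.93 ± 2.44 TPM, higher by 1.86 (adjusted p = 1.66e-06). Foxa2, a factor of endoderm and floor plate, was at 9.45 ± 1.64 and 2.85 ± 0.0702 TPM, lower by -1.43 (adjusted p = 2.63e-06), and Lhx1, a factor of axial mesendoderm, at 8.88 ± 1.14 and 2.2 ± 0.675 TPM, lower by -1.64 (adjusted p = 3.93e-07). The table kept only genes with at least 5 TPM in at least 3 samples. Fgf8 reached 5 TPM only in KO at d6 and Eomes only in KO libraries, whereas Foxa2 and Lhx1 did so only in Ctrl at d6. These genes thus entered the table through the genotype in which they were higher at d6. Their directions are a description only and no test of the targets.

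**Figure D4:**
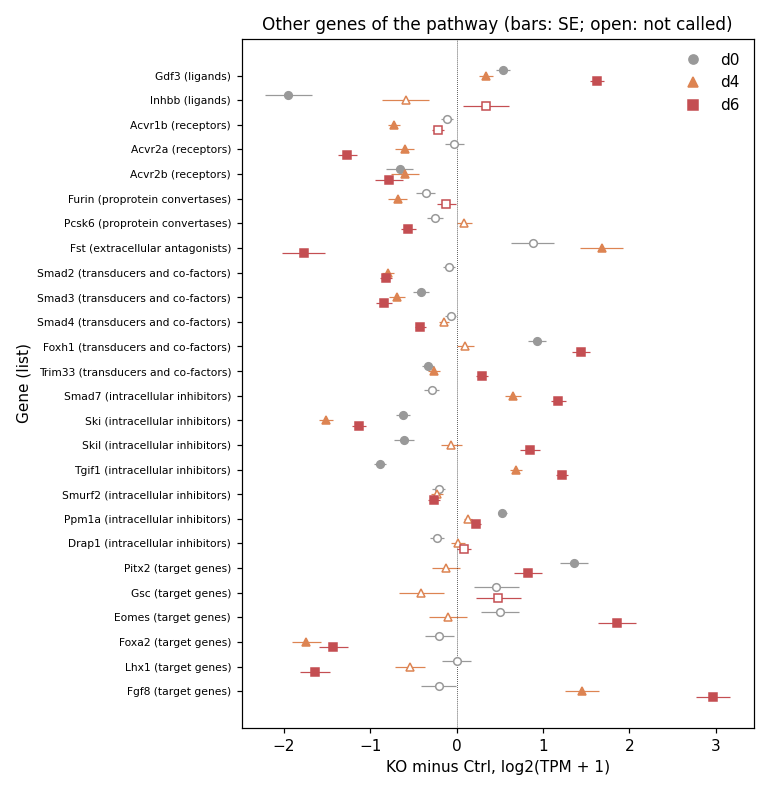
KO minus Ctrl difference on the log2(TPM + 1) scale of the 26 other pathway genes, grouped by role, at d0 (grey circles), d4 (orange triangles) and d6 (red squares), with bars for the SE and filled points for called differences. At d6 points lie on both sides of 0, from -1.77 (Fst) to 2.97 (Fgf8).

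The genes next to the 4 were examined since Lefty2 and Lefty1 lie together. Of 9 other genes described here whose start lay within 100 kb of a start of the 4, none passed as higher and 2 as lower at d0, 3 and 1 at d4, and 5 and 1 at d6. The shares over all genes were 10.6% higher and 16.4% lower at d0, 12.7% and 32.7% at d4, and 17.9% and 34.3% at d6. Tmem63a, a membrane protein gene that starts 7.3 kb downstream of the Lefty1 start, was higher by 1.32 at d6 (adjusted p = 6.89e-08), whereas the differences of Sde2, 42.0 kb upstream of Lefty2, were between -0.14 and 0.13 and not called. Lrrc2, which starts 5.4 kb upstream of Tdgf1, had means of 58.13, 7.533 and 2.526 TPM in Ctrl and 56.02, 22.6 and 10.91 TPM in KO, with differences of -0.05 at d0 (adjusted p = 0.883), 1.48 at d4 (adjusted p = 7.11e-05) and 1.69 at d6 (adjusted p = 1.2e-05). Ephx1, 85.9 kb downstream of the Lefty1 start, was higher by 1.3 at d4 and 0.93 at d6. Prss50, 88.2 kb downstream of the Tdgf1 start, was lower by -1.07 at d0 and higher by 0.43 at d6. Beside Nodal, Pald1 was lower by -0.4 at d0 (adjusted p = 1.03e-05), then higher by 0.33 at d4 and by 0.56 at d6 (adjusted p = 5.63e-08). Lrrc20 was lower by -0.44 at d6 (adjusted p = 0.00225), and Eif4ebp2 was not called at any day.

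**Figure D5:**
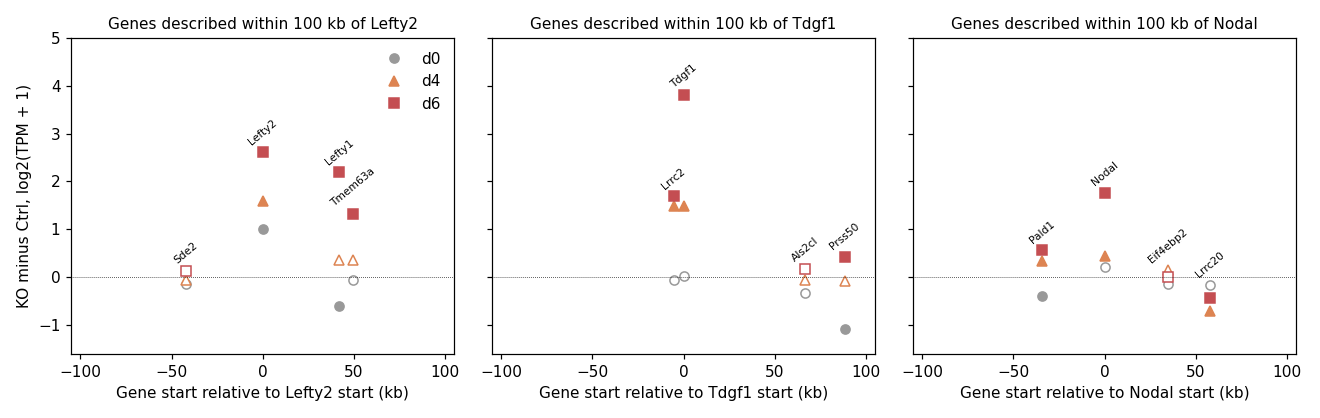
KO minus Ctrl difference on the log2(TPM + 1) scale of the genes described within 100 kb of Lefty2, Tdgf1 and Nodal against the distance of their starts in kb (downstream positive), at d0 (grey circles), d4 (orange triangles) and d6 (red squares), filled where called. At d6 Lefty2, Lefty1 and Tmem63a lie at 2.61, 2.20 and 1.32, while Sde2 lies at 0.13.

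For each of the 4, the genes with the most similar pattern over the 18 libraries were listed by Pearson r, as a description. Nodal was most like Zscan10 (r = 0.964), Pou5f1 (0.959), Etv5 (0.957), Cdc42ep5 (0.95) and Kirrel2 (0.949). Pou5f1, the pluripotency factor OCT4, had group means of 1140, 453 and 101 TPM in Ctrl and 1130, 1010 and 652 TPM in KO at d0, d4 and d6. Beside its copy, Tdgf1 was most like Etv5 (0.959), Glud1 (0.958), Gart (0.958) and Akap12 (0.957), so that the ETS factor Etv5 was on the lists of both Nodal and Tdgf1. Lefty1 was most like Foxr2 (0.984), Enpp3 (0.978), Mctp2 (0.977), Uri1 (0.973) and Foxo1 (0.972), of which Enpp3, an ectoenzyme, was at means of 7.23, 215 and 47.5 TPM in Ctrl and 8.81, 168 and 127 TPM in KO. Lefty2 was most like Nqo1 (0.98), Dcaf4 (0.979), Gm12734 (0.963), Ybx3 (0.962) and Liph (0.959), and Nqo1, a quinone reductase, was at 172, 136 and 21.2 TPM in Ctrl and 361, 317 and 134 TPM in KO. No gene was on the lists of both Lefty1 and Lefty2.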

How the data were processed

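RNA of 18 cultures was sequenced as single reads of 36 bp. The authors mapped reads to GRCm38 with Tophat2 2.0.13, counted them per gene with featureCounts 1.4.6 and deposited TPM values of genes with at least 5 TPM in at least 3 samples, without short noncoding genes and the 20% least variable genes. The deposited table also held 3 score columns of gene variability, which were not used. It had 11046 entries, of which 81 repeated identifiers were left out.

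TPM values were tested as log2(TPM + 1) with limma 3.58.1 (R 4.3.3; trend), with 1 mean for each of 6 groups and Benjamini-Hochberg adjustment over 10965 genes, called at an adjusted p below 0.01. A fold is the back-transformed log2(TPM + 1) difference and understates changes of low genes. Whole reads were recovered from TPM for 10965 genes (tolerance 1e-06), 9622622 to 15617675 per library, and were tested with voom as an alternative. Other alternatives were pseudocounts 0.1 and 5, a mean TPM of at least 10, rescaling by median ratios or quantiles, a fit to the compared groups, a replicate block and leaving out each library. Scripts were tested on simulated data. Replicates were biological per the labels. The 4 genes and all lists were chosen with earlier results of these data known. Named genes were the 4, the Tdgf1 copy, pathway genes called at d4 or d6 with a difference above 1, genes within 100 kb (1 is not reported here) and the 5 most alike genes. Inhbb, Smad2, Smad3, Smad4 and Trim33 fall outside that rule and were named after their values were seen.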

Additional observations from a re-analysis of the deposited data

Results flagged for a closer look

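The changes between days of the 4 genes differed between Zeb2 KO and Ctrl in 10 of 12 comparisons, each tested as an interaction in limma with Benjamini-Hochberg adjustment over all genes. From d0 to d4 the change was higher in KO by 0.95 for Lefty1 (adjusted p = 0.000369) and by 1.46 for Tdgf1 (adjusted p = 7.84e-05), beside 13.6% of all genes called higher. For Nodal it was 0.22 (adjusted p = 0.181) and for Lefty2 0.59 (adjusted p = 0.0109), neither of them called.

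From d4 to d6 the change was higher in KO for all 4 genes, beside 7.1% of all genes called higher. The difference was 1.33 for Nodal (adjusted p = 2.01e-06), 2.32 for Tdgf1 (adjusted p = 2.01e-06), 1.85 for Lefty1 (adjusted p = 1.61e-06) and 1.01 for Lefty2 (adjusted p = 0.000551). From d0 to d6 it was 1.54 for Nodal (adjusted p = 8.03e-08), 3.78 for Tdgf1 (adjusted p = 1.66e-09), 2.80 for Lefty1 (adjusted p = 2.95e-09) and 1.60 for Lefty2 (adjusted p = 1.48e-06), beside 17.8% of all genes called higher. The changes of 1 genotype share their d0, d4 or d6 libraries, so these comparisons are not independent. After median-ratio rescaling the share of called interactions that were higher moved from 37.8% to 52.0% for d0 to d4 and from 40.7% to 51.1% for d0 to d6.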

How the results depend on the processing

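Of 1575 recomputed values that answer a comparison, 1546 were counted as unchanged. For a difference or change of a gene, this meant the same direction and the same side of the threshold. For the counts of pathway genes called, it meant a similar number, such as 6 or 8 instead of 7 lower at d0. Leaving out a library outside a comparison cannot move the estimate, only the adjusted p. The 1546 thus include values whose direction could not turn. The remainder were mostly differences near the threshold or near 0, and the cause was not tested.

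Directions turned only for values near 0. Tdgf1 at d0 was -0.03 without KO d0 replicate 3 and -0.04 with Tdgf1-ps1 added (leave-one-out range -0.03 to 0.08). Lefty2 from d0 to d4 in Ctrl was 0.02 without Ctrl d0 replicate 2 and 0.05 without Ctrl d4 replicate 3 (range -0.21 to 0.05). Nodal from d0 to d4 in KO was 0.0 without KO d4 replicate 2 (range -0.12 to 0.0).

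Calls were lost for Lefty1 at d0 in a fit to the compared groups (-0.59) and with voom (-0.57), for Lefty2 from d0 to d4 in KO after median-ratio rescaling (0.33) and for Tdgf1 from d0 to d6 in KO with Tdgf1-ps1 added (0.67). Calls were gained for Lefty1 at d4 after median-ratio rescaling (0.53), in the fit to compared groups (0.36) and with voom (0.48; leave-one-out range 0.31 to 0.41). They were also gained for Nodal from d0 to d4 in Ctrl after median-ratio rescaling (-0.57) and with voom (-0.39; range -0.33 to -0.17), for Tdgf1 in KO from d0 to d4 in the fit to compared groups (0.38; range 0.34 to 0.44) and from d4 to d6 with voom (0.47; range 0.17 to 0.58). The Lefty2 interaction from d0 to d4 was called with pseudocount 5 (0.58), a mean TPM of at least 10 (0.59), median-ratio rescaling (0.72) and voom (0.67), and without Ctrl d0 replicate 1 (0.71), Ctrl d4 replicate 1 (0.71) or KO d0 replicate 3 (0.66; range 0.45 to 0.71). Quantile normalization called none of these (0.24 for Lefty1, -0.24 for Nodal and 0.60 for the Lefty2 interaction). Pathway genes called lower at d0 were 4 instead of 7 in the fit to compared groups.

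All genes called higher and lower in KO at d4 numbered 1397 and 3591, but 2300 and 2335 with rescaling by median ratios, and 2132 and 2276 with quantiles made equal.

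Same-numbered KO and Ctrl libraries did not deviate together in every pair (r = 0.152, 0.148 and -0.0773 at d0, 0.231, 0.187 and 0.0465 at d4, and 0.18, 0.214 and 0.0183 at d6). Replicates 1 and 2 thus correlated with their own number on each day and replicate 3 weakly or not, so the numbers were not taken as pairs. With the replicate number as a block, no call of the 4 genes changed, and Tdgf1 at d6 was 3.81 (adjusted p = 5.08e-11). At d0 and d6 KO replicate 3 correlated best with Ctrl replicate 2. The lowest count behind a value of the 4 genes was 107 reads, for Lefty1 at d0.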
